A study of Rattus norvegicus with 6 samples.

Results

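Myh6 (ENSRNOG00000025757) and Myh7 (ENSRNOG00000016983) encode the alpha and beta heavy chains of cardiac myosin, the motor protein of the thick filament, and are described here as 2 of the 21554 genes counted in rat heart RNA. The 2 rows were chosen by identifier, with earlier results of these data known. Their names were checked on the values, since no table used here pairs them with a symbol. The gene length implied by count, FPKM and library total was 6042 bases for the Myh6 row and 5923 bases for the Myh7 row, the same in all 6 hearts and within the 5800 to 6200 bases set for such a transcript. By mean FPKM, a read count scaled to gene length and library total, the Myh6 row was the 24th and the Myh7 row the 28th most abundant of the 21554 rows in the control group, so both rows passed. The check shows rows of the right length and level, but it does not say which of the 2 is alpha and which is beta.

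Hearts came from male Sprague-Dawley rats. The model group (3 hearts, rats 3, 4 and 8) received a single dose of streptozotocin (STZ), which destroys the insulin-producing cells of the pancreas, to induce diabetic cardiomyopathy (DCM). The control group (3 hearts, rats 1, 2 and 3) was labelled normal and, by the study's methods, was given the citrate buffer alone. Hearts were taken 5 months after diabetes was induced, and the methods kept only STZ rats whose blood glucose passed a set limit. Neither the labels nor the methods say which chamber of the heart was used, and an injected toxin models insulin deficiency without the obesity of type 2 diabetes. Each control library summed to between 17588259 and 17948961 counts, and each model library to between 16617803 and 17734095. CPM is a count scaled to the library total, which for log2 CPM was adjusted by TMM, a scaling explained below. Correlations across genes of log2 CPM were 0.967 to 0.973 between control hearts. They were 0.927 to 0.966 between model hearts, where model rat 3 stood farthest from the others. With control hearts, model rat 3 was at 0.808 to 0.860, and model rats 4 and 8 were at 0.863 to 0.924.

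The thick filament of heart muscle is built from these heavy chains, whose heads split ATP and pull on actin. The alpha chain is the fast form with the higher ATPase activity and the beta chain the slower and more economical form. In rodents the alpha chain prevails in the adult ventricle and the beta chain in the fetal ventricle, thyroid hormone raises the first and represses the second, and a shift from alpha to beta is a known trait of the diabetic, hypothyroid or overloaded rodent heart. The 2 genes lie next to each other on chromosome 15 in the RefSeq annotation of assembly GRCr8, both read from the minus strand, with Myh7 upstream of Myh6.

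Each gene also carries a microRNA in an intron, miR-208a in Myh6 and miR-208b in Myh7, which are made from the host gene's own transcript. Their mature sequences from RefSeq are shown because they are the part of the 2 transcripts that acts as a regulatory RNA. Letters are given 5′ to 3′, with the seed (bases 2 to 8) in capitals.
rno-miR-208a-3p: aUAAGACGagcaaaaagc
rno-miR-208b-3p: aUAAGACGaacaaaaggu
rno-miR-208a-5p: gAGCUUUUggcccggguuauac
rno-miR-208b-5p: aAGCUUUUugcucgcguuau
The 3p arms share 1 seed and differ at 3 of 18 bases, and the 5p arms share another seed. The 3p arms lie at chr15:32395568-32395585 and chr15:32421648-32421665 on the minus strand, inside the spans of Myh6 and Myh7. Mature microRNAs are too short for these libraries and were not measured, so the values that follow are of the host genes.

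Both myosin heavy chain genes fell in the model group. Mean Myh6 FPKM in the model group was 4.85% of that in the control group, and mean Myh7 FPKM was 33.1%. No model heart reached the level of any control heart for either gene. The share of all genes tested whose groups lie apart in this way was not counted, so this is a description only. In the control group Myh6 was the higher gene in 2 of 3 hearts, whereas in the model group Myh7 was the higher gene in 3 of 3.

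Myh6 measured 1888, 2675 and 1327 FPKM in control rats 1, 2 and 3. It measured 71.8, 142.3 and 71.8 FPKM in model rats 3, 4 and 8. The groups were far apart, since the highest model heart lay 9.32-fold below the lowest control heart. In raw counts model rats 3, 4 and 8 held 7211, 15248 and 7304 Myh6 reads, so counting error is small beside the difference. The means were 1963 ± 677 FPKM (SD, n = 3) in the control group and 95.3 ± 40.7 (SD, n = 3) in the model group, which is 20.6-fold lower.

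Myh6 had a log2 fold change of -4.65 ± 0.50 (SE) on counts scaled by TMM, which lines up the bulk of the genes between libraries, and its adjusted p was 0.000573 (edgeR's quasi-likelihood test, Benjamini-Hochberg adjustment over 13895 genes). On TMM-scaled CPM the model mean was 25.2-fold lower. A gene was called when its adjusted p was below 0.05 and it changed by more than 1 on the log2 scale. Both Myh6 and Myh7 (2 of 2) were called lower, against a background of 13.2% of all genes tested that were called lower. With 3 hearts against 3, the two-sided exact permutation test on FPKM gave p = 0.1, the smallest that it can give.

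Myh7 measured 1299, 1897 and 1594 FPKM in control rats 1, 2 and 3. It measured 151, 957 and 476 FPKM in model rats 3, 4 and 8. The groups did not overlap, but the gap was narrow, as model rat 4 lay 1.36-fold below control rat 1. Model hearts differed from each other by 6.36-fold in Myh7, against 1.46-fold among control hearts and 1.98-fold for Myh6 among the same model hearts. The means were 1597 ± 299 FPKM (SD, n = 3) in the control group and 528 ± 406 (SD, n = 3) in the model group, 3.02-fold lower.

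In the same edgeR fit Myh7 had a log2 fold change of -1.91 ± 0.61 (SE) with an adjusted p of 0.0387, past both thresholds, and the two-sided exact permutation test on FPKM again gave its smallest p of 0.1. The adjusted p-value was 0.0677, 0.0953 and 0.0974 in the edgeR fits without control rat 1, 2 or 3, and 0.0983 without model rat 8. It was 0.0133 without model rat 3 and 0.0207 without model rat 4, where the log2 fold changes were -1.52 and -2.53. The direction was the same in all 6 of these fits, whereas Myh6 stayed past both thresholds in each of them.

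**Figure D1:**
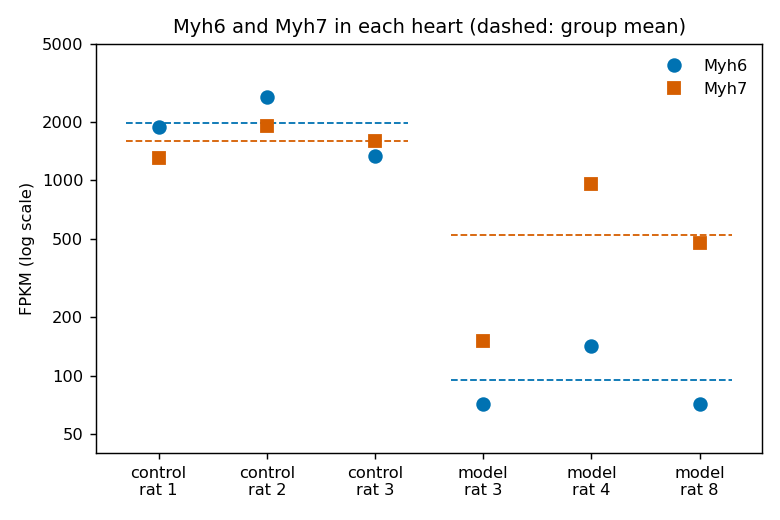
FPKM (log axis) of Myh6 (circles) and Myh7 (squares) in each of the 6 hearts, with dashed lines at the group means. Myh6 lies between 1327 and 2675 in control hearts and between 71.8 and 142.3 in model hearts, while Myh7 in model hearts is spread from 151 to 957.

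Some reads of the 2 genes can be shared, because their coding sequences are near-identical over long stretches, and the way the counting treated such reads is not given in the sources used here. The levels of each gene, and the Myh7 share below, are uncertain to that extent. The summed count of both genes does not depend on how reads were divided between them, so the sum was also tested as 1 gene. The sum would still change if shared reads were dropped or counted for both genes.

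Together the 2 genes took 1.91%, 2.74% and 1.75% of all counts in control rats 1, 2 and 3. In model rats 3, 4 and 8 they took 0.133%, 0.653% and 0.325%. Every control library thus gave more of its reads to cardiac myosin heavy chain than any model library, by 2.67-fold at the narrowest. The means were 2.13% ± 0.53 (SD, n = 3) and 0.370% ± 0.263 (SD, n = 3), and the two-sided exact permutation test gave p = 0.1, its smallest value. The exact Clopper-Pearson 95% intervals of these shares were at most 0.0152 percentage points wide and cover counting error only. Tested as 1 gene in edgeR's fit, the sum changed by -2.83 ± 0.63 (SE) on the log2 scale, with an adjusted p of 0.0100. In the 6 fits that each omitted 1 heart, the sum was past both thresholds, with adjusted p-values from 0.00367 to 0.0413.

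**Figure D2:**
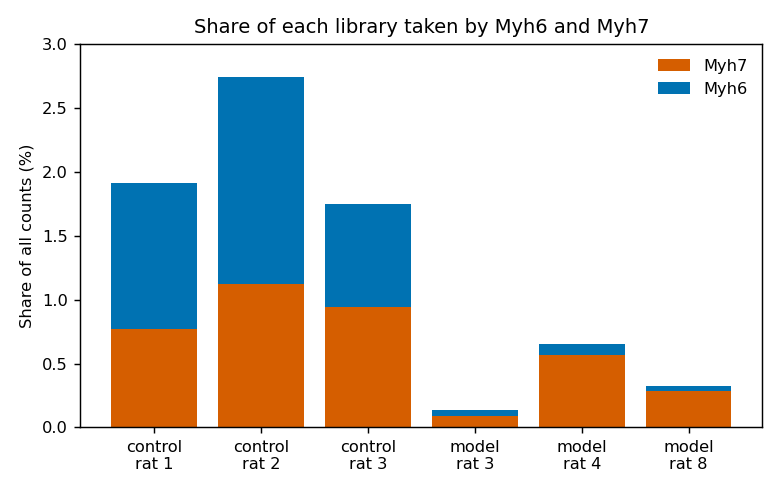
Percent of all counts taken by Myh7 (lower part of each bar) and Myh6 (upper part) in each heart. Whole bars reach 1.75% to 2.74% in control hearts and 0.133% to 0.653% in model hearts, with Myh6 a thin upper part of the model bars.

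These are whole-tissue values, in which fewer heart muscle cells and less myosin RNA per cell cannot be told apart. The 100 most abundant genes other than Myh6 and Myh7 took 50.6% ± 5.9 (SD, n = 3) of counts in the control group and 51.5% ± 6.4 (SD, n = 3) in the model group (two-sided exact permutation test, p = 0.8), and the hearts of the groups overlapped in this share. Of 15 endothelial markers, 8 (Kdr, Vwf, Egfl7, Emcn, Eng, Esam, Sox17 and Sox18) could be paired with an identifier, none of them at 0 in any heart. Their summed level was 820 to 1054 CPM in control hearts and 2801 to 4073 in model hearts. All marker CPM values in this paragraph were scaled to library totals, without TMM. Identifiers were paired with symbols through the study's own list of genes called higher in these hearts, which fixes both the direction and the call of these markers, so the values are a description only. Through the same set, 2 of 11 immune markers (Cd163 and Lyz2) summed to 60.3 to 61.8 CPM in control hearts and 142 to 200 in model hearts. The fibroblast marker Postn (1 of 10) was at 1.47 to 4.85 CPM in control hearts and 18.4 to 31.2 in model hearts. None of 9 smooth muscle, 6 atrial or 5 red blood cell markers could be paired. The part of other cell types in the fall of Myh6 and Myh7 was not tested. Among 11 markers of heart muscle cells none was paired through that list, which holds only genes called higher. Myh6 is 1 of the 11, but its identifier was set beforehand. The other markers of these cells were therefore not analysed here.

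The relative RNA level of the 2 genes, which does not depend on how a library is scaled, was shifted to Myh7 in each model heart. Myosin protein was not analysed here. The Myh7 share of the summed FPKM was 40.8%, 41.5% and 54.6% in control rats 1, 2 and 3. In model rats 3, 4 and 8 it was 67.7%, 87.1% and 86.9%. The groups did not overlap, and control rat 3 and model rat 3 were the nearest pair. The means were 45.6% ± 7.8 (SD, n = 3) in the control group and 80.6% ± 11.1 (SD, n = 3) in the model group, a difference of 34.9 percentage points (two-sided exact permutation test, p = 0.1, its smallest value). When 1 heart at a time was omitted, the difference ran from 31.7 to 41.4 percentage points.

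As a ratio, Myh7 was 0.688, 0.709 and 1.20 times Myh6 in control rats 1, 2 and 3. It was 2.10, 6.73 and 6.64 times Myh6 in model rats 3, 4 and 8. In control rats 1 and 2 Myh6 was therefore the higher gene per length, and in control rat 3 and in all 3 model rats Myh7 was. The higher Myh7 share in the model group came with less Myh7 and not with more, since Myh7 itself was lower in each model heart and Myh6 was lower still. Within the model group, rat 3 had both the least Myh7 and the smallest Myh7 share, while rats 4 and 8 had nearly the same share with Myh7 levels of 957 and 476 FPKM.

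**Figure D3:**
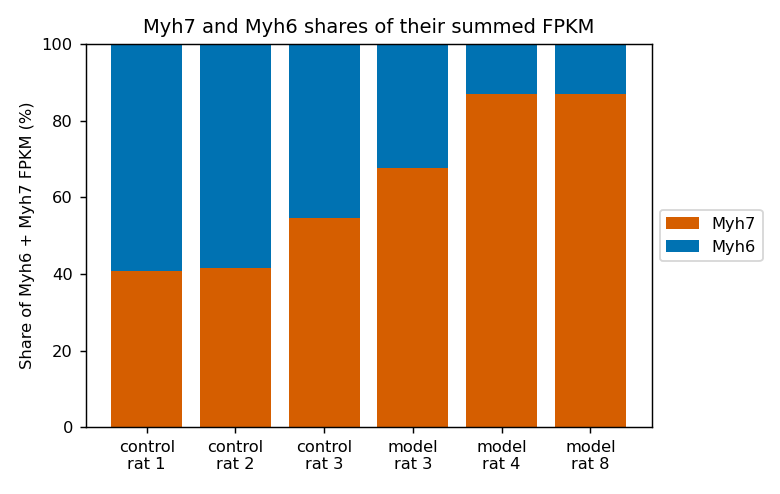
Myh7 (lower part) and Myh6 (upper part) as percent of the summed FPKM of both genes in each heart. The Myh7 part covers 40.8% to 54.6% in control hearts and 67.7% to 87.1% in model hearts.

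Set beside all genes, Myh6 had the 23rd lowest log2 fold change and Myh7 the 785th lowest of the 13895 genes tested. Of the 40 tested genes with a mean of at least 1000 FPKM in control hearts, Myh6 had the lowest log2 fold change, and 15 of them had a lower one than Myh7. Of these 40 genes, Myh6 and Myh7 among them, 18 were called lower and 1 higher, while 13.2% of all genes tested were called lower. The median log2 fold change of the 40 genes was -1.28, against 0.08 for all genes tested. The 40 genes were picked by their control level alone, which favours genes that are lower in the model group. The order, these counts and the median of the 40 genes are therefore a description only. By mean FPKM, Myh6 went from the 24th most abundant row in the control group to the 352nd in the model group. Myh7 went from the 28th to the 48th, and in model rat 4 it was still the 28th.

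**Figure D4:**
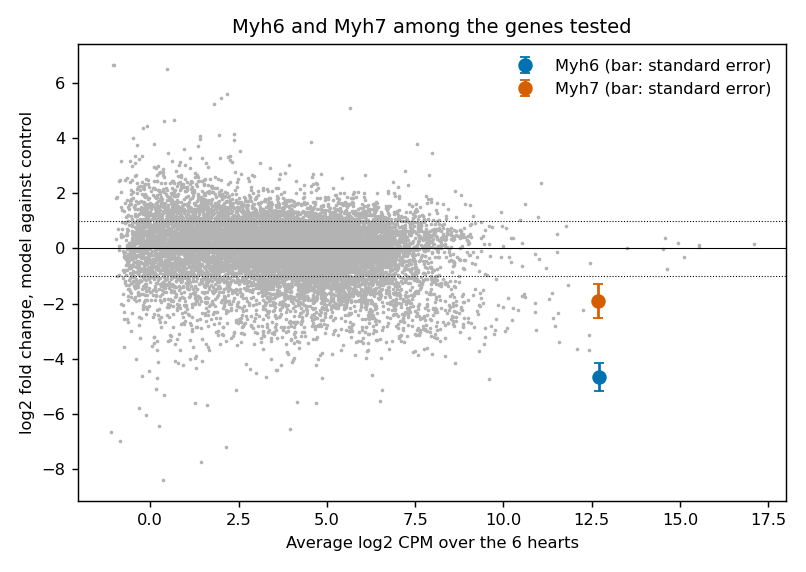
Log2 fold change of the model against the control group for each of the 13895 genes tested, by average log2 CPM over the 6 hearts, with Myh6 and Myh7 marked with their standard errors and dotted lines at -1 and 1. Myh6 at -4.65 is the lowest point among the most abundant genes, and Myh7 at -1.91 lies among several abundant genes that were also lower.

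Over the 6 hearts, Pearson's r between the log2 CPM of Myh6 and Myh7 was 0.868, and Myh7 was the 2316th most like Myh6 of the 12131 genes compared. The gene most like Myh6 was ENSRNOG00000040040 (r = 0.999 over 6 hearts), at 17.5 to 22.6 FPKM in control hearts and 7.85 to 10.9 in model hearts. The gene most like Myh7 was ENSRNOG00000011754 (r = 0.999 over 6 hearts), at 375 to 480 FPKM in control hearts. In model rats 3, 4 and 8 it was at 49.8, 265.5 and 139.3 FPKM, the same order of model hearts as Myh7. These correlations describe 6 hearts that share the difference between the groups, and no p-value is given. No name is paired with either identifier in the tables used here.

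The other parts of the contractile machinery could be reached only in small part. Lists of sarcomere, calcium handling, thyroid hormone, regulator and cell marker genes held 166 symbols. Of these, 15 had an identifier, with those of Myh6 and Myh7 set beforehand and not paired through the study's list. None of the 10 thin filament genes, 10 Z disc genes, 10 calcium handling genes, 15 genes of thyroid hormone and its receptors or 23 regulators of the myosin genes was among them, and these were not analysed here. Of 15 skeletal and smooth muscle contractile genes, Tpm2 and Tnni2 were paired, through a list of genes that were higher in the model group, so that their direction and their call are given by that list. Tpm2, which encodes beta-tropomyosin of the thin filament, was at 9.25, 7.53 and 10.2 FPKM in control rats 1, 2 and 3. It was at 24.0, 35.4 and 20.6 FPKM in model rats 3, 4 and 8. Its log2 fold change in edgeR's fit was 1.27 ± 0.21 (SE), adjusted p = 0.00301. Tnni2, the fast skeletal form of the inhibitory troponin subunit, stayed below 3 FPKM in each heart, and changed by 2.79 ± 0.90 (SE) on the log2 scale in the same fit, adjusted p = 0.0399.

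Changes in scaling moved both genes together. Scaling by library totals alone put the log2 fold change at -4.36 for Myh6 and -1.60 for Myh7, while it moved the median of all genes tested from 0.08 to 0.34. Relative to the median of all genes, Myh6 was at -4.73 with TMM and -4.71 with library totals, and Myh7 was at -1.98 and -1.94.

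**Figure D5:**
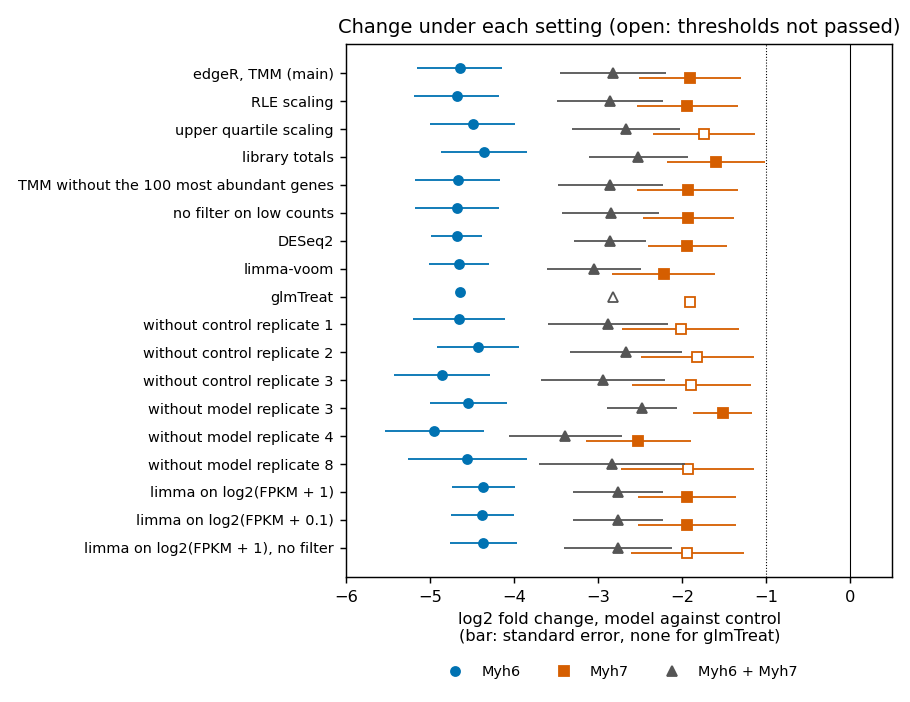
Log2 fold change of Myh6 (circles), Myh7 (squares) and their summed counts (triangles) under each setting, with standard errors as bars and open symbols where the adjusted p-value was 0.05 or more. Myh6 stays between -4.95 and -4.36 with filled symbols throughout, and Myh7 stays between -2.53 and -1.52 with 7 open symbols.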

How the data were processed

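Heart RNA of 3 control and 3 model rats was sequenced from NEBNext Ultra libraries. The authors deposited raw read counts per Ensembl gene, without normalization, and FPKM values that the authors scaled to gene length and library total; for both genes these gave 1 length in all 6 libraries. The submitters' processing notes name HISAT2 2.0.5, StringTie 1.3.3b and build mRatBN7.2. The counting tool, its use of strand and its treatment of reads that match several genes are not given in the sources used here, so antisense transcripts of the locus cannot be told apart. Columns were matched to samples by title. The labels do not state that each library is 1 animal. The libraries were taken as separate rats, and p-values compare the 2 groups with the libraries as replicates.

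edgeR 4.0.16 (R 4.3.3) was run on all genes after filterByExpr and TMM, by its quasi-likelihood test on the group alone, and was tested on simulated data. A gene was called at adjusted p below 0.05 when it changed by more than 1 on the log2 scale. The SE is |log2 fold change| over the root of F. DESeq2 1.42.0 and limma 3.58.1 were alternatives. Permutation tests and intervals used scipy 1.17.1. Likeness was computed on log2 CPM (prior count 2) over genes averaging at least 1 on that scale.

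The 2 genes and the gene lists were chosen with earlier results of these data known. Named genes were the 2 members, paired list members, the most and least alike genes. Symbols other than those of the 2 members came from the study's supplementary gene list. From it 1076 identifiers with a symbol were read, all higher in the model group. The RefSeq table of GRCr8 has 0 entries in its Ensembl column and gave the locus and microRNA sequences. Its coordinates are not those of the authors' build.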

Additional observations from a re-analysis of the deposited data

How the results depend on the processing

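Myh6 was lower and past both thresholds in all 17 alternatives, from -4.95 to -4.36, and its adjusted p-value was at most 0.0113. Myh7 was lower in all 17 and past both thresholds in 10. Its adjusted p-value was 0.0509 with upper quartile scaling (-1.74), 0.0934 on log2(FPKM + 1) without a filter (-1.94) and 0.265 with glmTreat (-1.91), where the change had to exceed 1 on the log2 scale. The summed counts were past both thresholds in 16 of 17, the exception being glmTreat (-2.83, adjusted p = 0.0581). Without 1 replicate, values ran from -4.95 to -4.43 for Myh6, -2.53 to -1.52 for Myh7 and -3.39 to -2.48 for the sum. The Myh7 share differed by 35.1 percentage points on counts, and by 31.7 to 41.4 with a replicate left out. The difference in the summed share of the library was -1.76 percentage points, -3.54 when the 100 most abundant other genes were left out of the total, -0.492 as a share of summed FPKM, and -1.95 to -1.46 with a replicate left out. The first of these totals is smaller by construction, and the second weights genes per length.

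Of all genes tested, 3014 were called and 1839 of these were lower. These numbers were 933 and 804 with glmTreat, 1919 and 938 on log2(FPKM + 1) without a filter, and 1091 lower on log2(FPKM + 1) with one, and ran from 2145 to 3112 and from 1488 to 1950 with a replicate left out. The share of calls that were lower was 61.0% with TMM, 47.6% with upper quartile scaling and 37.1% with library totals. No paired analysis was possible because control and model rats have just 1 number (3) in common, given to different animals. The lowest count of the 2 genes was 7211. With 3 hearts against 3, the permutation test cannot give a p below 0.1. Some alternatives that lost calls used fewer hearts or a stricter hypothesis. Upper quartile scaling and log2(FPKM + 1) without a filter used all 6 hearts. The cause of the lost calls was not tested.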

Other observations

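Among the genes with a symbol, all of them from a list of higher genes, those whose log2 CPM ran most against Myh6 over the 6 hearts were Pde2a, a phosphodiesterase that breaks down cyclic nucleotides, Abi3 and Rassf10. Pde2a was at 11.5, 11.9 and 12.5 FPKM in control rats 1, 2 and 3. It was at 31.3, 34.2 and 30.5 in model rats 3, 4 and 8 (r = -0.998 with Myh6), above all control hearts.

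Those running most against Myh7 were Zfp40, Rpl37 and Thoc1. Rpl37, a protein of the large ribosomal subunit, was at 20.2, 14.9 and 15.4 FPKM in control rats 1, 2 and 3. It was at 80.4, 35.0 and 37.7 in model rats 3, 4 and 8 (r = -0.991 with Myh7), highest in the heart with the least Myh7. That heart, model rat 3, also stood farthest from the control hearts across all genes tested. Genes of ribosomal proteins have many processed copies, so their counts are uncertain. Each r is over 6 hearts that share the group difference and was picked from many genes, so no p-value is given.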
